A study of Mus musculus with 2 samples.

Results

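The Fscn1-high cells of the lung cDC2 sort are the cells of 1 single-cell library that held 3 or more unique transcript counts (UMIs) of Fscn1, the gene of the actin-bundling protein fascin (ENSMUSG00000029581, chr5:142960343-142973185 on the plus strand of GRCm38). Of 3045 barcodes in that library, 2835 were kept at 500 genes, 1000 UMIs and at most 10% mitochondrial UMIs, and 74 of them were Fscn1-high. The cells were chosen by their measured Fscn1 UMIs, and every gene of the comparison comes from the same cells, so the values below are descriptions. They made up 2.61% of the kept cells of the sort (exact binomial interval 2.06 to 3.27%, counting error only), out of 5409 kept cells in both libraries of the study. They were set against 2271 Fscn1-negative cells of the same library, which had no Fscn1 UMI and fewer than 4 UMIs over 6 cell cycle genes.

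Lungs of C57BL/6 mice, 8 to 10 weeks old, were digested with dispase, and dendritic cells were sorted by the surface proteins CD172a for type 2 conventional dendritic cells (the cDC2 sort) and XCR1 for type 1 (the cDC1 sort). No treatment or genotype contrast is given in the labels, and they do not say how many mice were pooled. Each sort is 1 library of the 10x Chromium v3.1 chemistry, so no difference below has a replicate check. No p-value is given, "higher" and "lower" stand for a ratio of at least 2-fold unless a value is given with the word, and each interval is a 95% interval for counting error alone.

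Fascin bundles actin into the long protrusions of mature dendritic cells. A conventional dendritic cell that matures in a tissue takes up less material, puts peptide-loaded MHC and costimulatory proteins on its surface, gains the chemokine receptor Ccr7 and travels along Ccl19 and Ccl21 through lymph vessels to the draining node. In the lung such cells are found without infection as well, and mature type 1 and type 2 cells share many genes of this state.

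The 74 Fscn1-high cells held 969460 UMIs, with 2207 to 45969 UMIs per cell and a median of 10803.5, and the Fscn1-negative cells held 28529866 UMIs with a median of 12105. The median mitochondrial share was 4.35% in Fscn1-high cells and 3.75% in Fscn1-negative cells. Of the barcodes, 6 occurred in both deposited matrices and 5 in both sets of kept cells, and 1 of these was a Fscn1-high cell. Without that cell, 753 genes were higher and 544 lower, against 759 and 546 with it.

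Fscn1 itself, which chose the cells, ranged over them from 3 to 91 UMIs with a median of 17. Just inside the threshold, 18 cells held 3 to 5 UMIs, and just outside it 108 cells held 1 or 2. The other genes given with the label were read as a check of it. Ccr7, the lymph node homing receptor, had 0 to 111 UMIs per Fscn1-high cell with a median of 42.5, against a median of 1 in Fscn1-negative cells. Nudt17, a nudix hydrolase, had a UMI in 45 of the 74 cells, and Fabp5, a fatty acid carrier, in 66 of them. Fabp4, a relative of Fabp5, had a UMI in 9 of the 74 cells, and 1 cell held 31.6% of its UMIs, so it did not mark the group as a whole.

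Of 10 genes of mature dendritic cells (Fscn1, Ccr7, Cacnb3, Nudt17, Apol7c, Ccl22, Cd200, Socs2, Il4i1 and Marcksl1), 6 or more were detected in 68 of the 74 Fscn1-high cells (91.9%) and in 14 of the 2271 Fscn1-negative cells (0.616%). Since Fscn1 is 1 of the 10 and chose the cells, this count is a description. The defining genes of conventional dendritic cells were present, at a lower summed level: the 6 markers summed to 27536 CPM (UMIs as a share of all UMIs of the group, in counts per 1e6) in Fscn1-high cells and 47232 CPM in Fscn1-negative cells. The 7 markers of type 2 cells summed to 1107 and 3029 CPM, and of 21 measured genes of a longer cDC2 identity list 10 were lower and 1 (Ms4a7) higher. Flt3, the receptor of their growth factor, stood at 129 CPM in Fscn1-high cells and 76.6 CPM in Fscn1-negative cells, and Zbtb46, their transcription factor, at 89.7 and 61.7 CPM. Sirpa, which encodes the CD172a of the sort, was at 149 CPM in Fscn1-high and 122 CPM in Fscn1-negative cells.

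Markers of B cells, T cells and granulocytes were at or near 0. The 7 neutrophil markers summed to 11 UMIs over all 74 cells, the 6 B cell markers and the 5 T cell markers to 1 UMI each, and the 5 mast cell and basophil markers to 0. The 5 NK cell markers summed to 31 UMIs, all of Klrk1, with at most 5 in a cell, the 5 plasmacytoid dendritic cell markers to 228 UMIs (235 CPM, against 250 CPM in Fscn1-negative cells) and the 5 epithelial markers to 67 UMIs, with at most 13 in a cell. The 7 markers of type 1 cells summed to 200 CPM in Fscn1-high cells and 89.1 CPM in Fscn1-negative cells, with 0 to 18 UMIs per Fscn1-high cell. Nearly all of that was Irf8, since Cd207 and Tlr3 were at 0 and Xcr1 had 1 UMI. Per Fscn1-high cell, the 7 markers of type 2 cells had a median of 4 UMIs. At 10 or more of these UMIs were 18 of the 74 Fscn1-high cells and 1994 of the 2271 Fscn1-negative cells. In 54 of the 74 Fscn1-high cells, type 2 marker UMIs outnumbered type 1 marker UMIs, and in the others they did not. Of the 8 alveolar macrophage markers, 5 (Chil3, Siglecf, Krt79, Car4 and Fabp1) were at 0. The 8 alveolar macrophage markers summed to 141 CPM in Fscn1-high and 354 CPM in Fscn1-negative cells, the 8 interstitial macrophage markers to 215 and 425 CPM, and the 8 monocyte markers to 369 and 754 CPM, with 0 to 47 monocyte-marker UMIs per Fscn1-high cell. The part of such cells or of their free RNA in the lower genes below was not tested beyond the values without them that stand beside those genes.

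Across all genes, 6766 reached 10 CPM in either group, of which 759 (11.2%) were higher and 546 (8.07%) lower in Fscn1-high cells, with a median log2 ratio of 0.11 over all 6766. Scaling by trimmed means (TMM) instead of total UMIs gave 570 higher and 772 lower genes with a median of -0.09, so ratios near 2-fold depend on the scaling. The shares of 11.2% and 8.07% are the background for each list below. The lists were chosen with earlier results of these data known and get no test of their own.

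**Figure D1:**
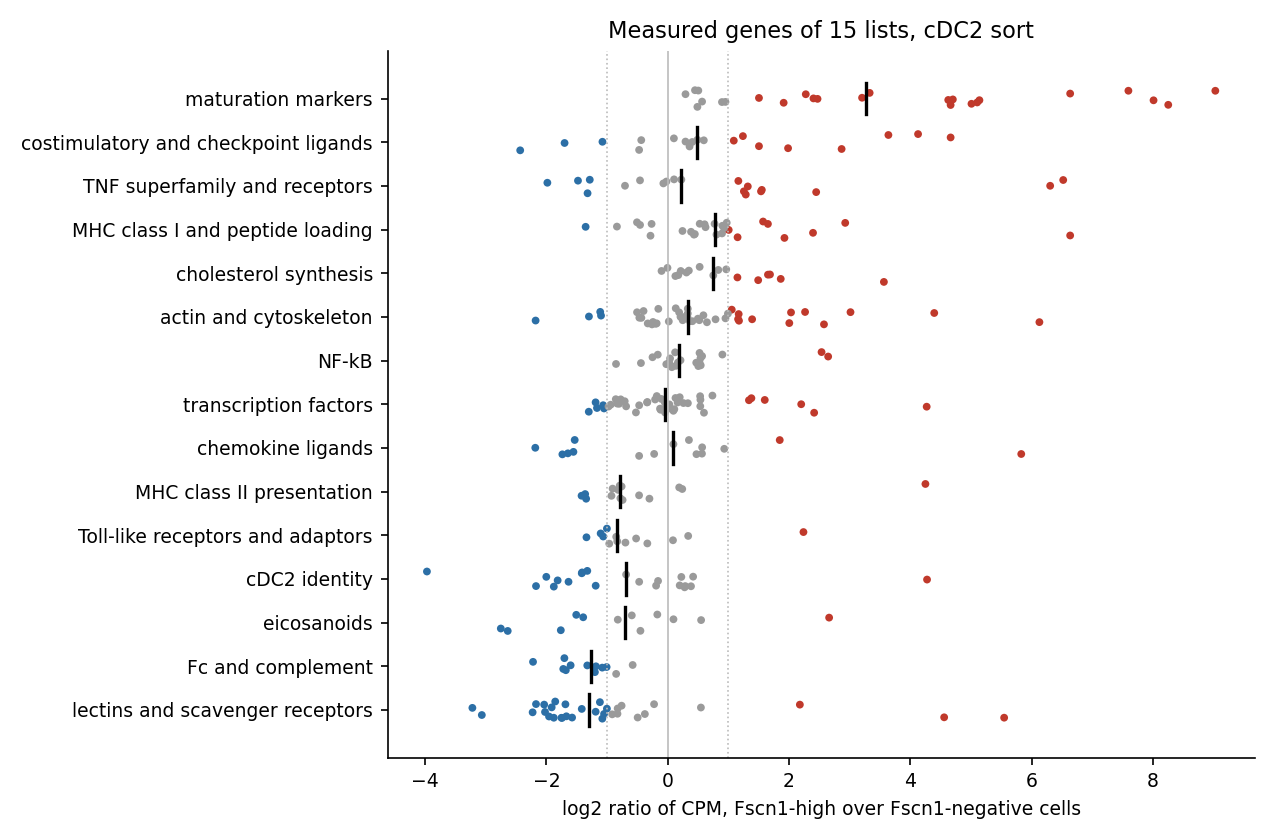
Log2 ratio of CPM, Fscn1-high over Fscn1-negative cells of the cDC2 sort, for the measured genes of 15 lists; each point is 1 gene (red: at least 2-fold higher, blue: at least 2-fold lower, grey: between), the black bar is the median of the list and dotted lines mark 2-fold. Fscn1 is left out as a point. Points of the maturation list lie to the right, with a median of 3.27 that counts Fscn1, and those of the lectins and scavenger receptors mostly to the left, with a median of -1.30.

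The maturation list showed the widest separation. Of its 26 measured genes, 19 were higher and 0 lower, with a median log2 ratio of 3.27. Fscn1, whose call the choice of cells fixed, is 1 of them, and without it 18 of 25 were higher. Apol7c, an apolipoprotein L family member, reached 530 CPM in Fscn1-high cells and 1.02 CPM in Fscn1-negative cells, a 522-fold ratio (359 to 787). It was uneven, with a UMI in 37 of the 74 cells and up to 50 UMIs in 1 cell. Cacnb3, a calcium channel subunit, was at 427 CPM in Fscn1-high cells and 1.40 CPM in Fscn1-negative cells (305-fold, 220 to 433), and 61 of the 74 cells held it. Nudt17 was at 156 and 0.806 CPM in the same order (193-fold, 124 to 314).

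The genes of this list that follow had smaller ratios. Ccr7 was 5.29-fold higher (5.10 to 5.49), at 3409 CPM in Fscn1-high cells and 645 CPM in Fscn1-negative cells. Tbc1d4, a Rab GTPase-activating protein, was at 1971 and 407 CPM, and Tmem123, a surface mucin-like protein, at 1437 CPM in Fscn1-high and 156 CPM in Fscn1-negative cells. Socs2, a brake on cytokine receptor signalling, was at 262 CPM in Fscn1-high cells and 10.6 CPM in Fscn1-negative cells, and Anxa3, an annexin, at 533 and 15.1 CPM. Mreg, which acts on melanosome and lysosome transport, was at 97.0 and 3.01 CPM. Cd83 and Cd86, also on the list, were within 2-fold: Cd86, a costimulatory ligand of T cells, was at 357 CPM in Fscn1-high cells and 291 CPM in Fscn1-negative cells.

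Fscn1 leads the 12 largest ratios at 50 CPM or more because the comparison cells were chosen to lack it. The other 11 were those of Apol7c, Cacnb3, Adcy6, Nudt17, Lad1, Clu, Slc4a8, H2-M2, Tnfrsf4, Tnfrsf9 and Ccl5. Adcy6, an adenylate cyclase, was at 81.5 CPM in Fscn1-high and 0.280 CPM in Fscn1-negative cells, and 37 of the 74 cells held it. Lad1, a basement membrane filament protein, was at 103 and 0.631 CPM. Clu, the secreted chaperone clusterin, was confined to fewer cells: 13 of the 74 cells held its 92 UMIs, and 1 cell held 23.9% of them. H2-M2, a nonclassical class I gene, was found in 25 of the 74 cells.

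Among the chemokines, Ccl5, Ccl22 and Ccl17 took different courses. Ccl5, a ligand of Ccr1 and Ccr3, had 0 to 281 UMIs per Fscn1-high cell with a median of 21, and the median Fscn1-negative cell had 0. Its level was 2855 CPM in Fscn1-high cells and 50.3 CPM in Fscn1-negative cells, a ratio of 56.8 (53.3 to 60.6). Ccl22, which attracts Ccr4-bearing regulatory T cells, had 0 to 354 UMIs per Fscn1-high cell with a median of 37, against a median of 5 in Fscn1-negative cells. It was 3.60-fold higher (3.49 to 3.70), at 5252 CPM against 1460 CPM. Ccl17, the other Ccr4 ligand and the neighbour of Ccl22, was within 2-fold, at 2949 CPM in Fscn1-high and 3442 CPM in Fscn1-negative cells.

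Of the 15 chemokine genes measured, 2 were higher and 5 lower. The lower ones were Ccl2, Ccl7, Cxcl2, Ccl6 and Cxcl10, which draw monocytes, neutrophils or activated T cells. Ccl2 was at 20.6 CPM in Fscn1-high and 93.6 CPM in Fscn1-negative cells, and Cxcl2 at 105 and 329 CPM. Without the 217 Fscn1-negative cells that held 10 or more UMIs of defining genes of neutrophils, macrophages, monocytes or B cells, the log2 ratio of Cxcl2 was -0.25 in place of -1.64, and 4 chemokines were higher and 3 lower.

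The receptors for inflammatory chemokines went the other way from Ccr7. Of 9 migration receptors measured, 1 (Ccr7) was higher and 4 were lower. Ccr2, the receptor of Ccl2, was at 46.4 CPM in Fscn1-high and 163 CPM in Fscn1-negative cells. Ccr1 was at 73.2 and 247 CPM. Cx3cr1, the fractalkine receptor, was at 14.4 and 44.8 CPM.

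Cytokine genes split in a similar way. Il12b, which encodes the p40 subunit of IL-12 and IL-23, was at 326 CPM in Fscn1-high cells and 7.75 CPM in Fscn1-negative cells (42.1-fold, 35.3 to 50.2). It was present in 33 of the 74 cells, and 1 cell held 23.4% of its UMIs. Il15 and its presenting receptor Il15ra were both higher, at 22.7 against 2.49 CPM and at 41.3 against 1.19 CPM, though Il15 had only 22 UMIs in all Fscn1-high cells. Il1b, the inflammasome-processed cytokine, was at 2068 CPM in Fscn1-high cells and 3483 CPM in Fscn1-negative cells, a ratio of 0.594 that stayed within 2-fold. Tgfb1 was lower, at 176 and 385 CPM. In all, 2 of 13 measured cytokine genes were higher and 5 lower (Il6, Vegfa, Osm, Tgfb1 and Il18), of which Il6 had 3 UMIs and Osm 12.

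Of 26 cytokine receptor genes, 3 were higher and 5 lower. Il2ra, the high-affinity chain of the IL-2 receptor, was at 80.5 CPM in Fscn1-high and 12.8 CPM in Fscn1-negative cells. Il21r was at 134 and 45.0 CPM. The lower ones included Csf1r, the receptor of the macrophage growth factor, at 33.0 CPM in Fscn1-high and 87.7 CPM in Fscn1-negative cells, and Il1r2, the decoy receptor of IL-1, at 140 and 328 CPM.

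Costimulatory and checkpoint ligands included 8 higher and 3 lower genes of 19 measured. Cd274, which encodes PD-L1, was at 149 CPM in Fscn1-high cells and 37.5 CPM in Fscn1-negative cells (3.96-fold, 3.30 to 4.71), and its relative Pdcd1lg2 (PD-L2) at 19.6 and 1.12 CPM on 19 UMIs. Cd40, which receives the signal of helper T cells, was at 167 and 58.9 CPM. Cd70, the ligand of CD27, was at 60.9 CPM in Fscn1-high and 8.34 CPM in Fscn1-negative cells, and Cd200, an inhibitory ligand for myeloid cells, at 122 and 4.80 CPM. Lower were Havcr2 (TIM-3), Lgals9 and Vsir, and Havcr2 was at 21.7 and 70.3 CPM.

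In the TNF superfamily and its adaptors, 9 genes were higher and 4 lower of 19 measured. Tnfrsf9 (4-1BB) was at 97.0 CPM in Fscn1-high cells and 1.23 CPM in Fscn1-negative cells (79.0-fold, 53.1 to 120). Tnfrsf4 (OX40), its relative on T cells, was at 54.7 and 0.596 CPM, in 18 of the 74 cells. Tnfrsf11a (RANK) was at 73.2 CPM in Fscn1-high and 13.4 CPM in Fscn1-negative cells. Of the adaptors that carry signals of these receptors, Traf1 was at 840 and 336 CPM, Traf2 at 27.9 and 9.50 CPM, and Traf3 at 35.1 and 14.4 CPM.

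Within the NF-kB list, 2 genes were higher and 0 lower of 22 measured. Relb, the subunit of the alternative pathway, had a UMI in 72 of the 74 cells and stood at 422 CPM in Fscn1-high and 67.4 CPM in Fscn1-negative cells (6.26-fold, 5.61 to 6.96). Birc2, a ubiquitin ligase that acts with the TRAF proteins, was at 255 and 43.9 CPM. Nfkb1, Rel and Nfkb2 were within 2-fold: Nfkb2, the partner of Relb, was at 141 CPM in Fscn1-high and 75.6 CPM in Fscn1-negative cells, and Nfkb1 at 887 and 901 CPM.

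Promoter sequences are shown for a receptor and its adaptors because 3 of the higher genes carry a match to a kB motif, GGG then any 2 bases then TTTCC, searched on both strands. Windows of 300 bases (250 before to 50 after the gene start, RefSeq, build GRCm38.p6) held the motif in 535 of 32851 promoters (1.63%). It was found in 4 of 27 promoters of the TNF list and in 7 of 24 promoters of the NF-kB list, in which neighbouring windows of Nfkb2 overlap. Holders of the motif that were within 2-fold were Ltb of the TNF list and Cyld, Nfkb2, Nfkbia, Rel and Tnfaip3 of the NF-kB list. Relb and Birc2, the higher genes of the NF-kB list, were not among the holders. Of the 23 genes of that list, 18 were matched to the promoters, so a gene can be missing from the holders for want of a sequence. Of the 12 genes of largest ratio, 9 were matched to the table, with 11 promoters, and 1 of them, Tnfrsf9, held it. The 3 higher genes of the TNF list that hold it are Tnfrsf9 (chr4:150927749-150928048, plus strand), Traf3 (chr12:111166120-111166419, plus strand) and Traf2 (chr2:25546891-25547190, minus strand), printed from 5′ to 3′ with the match in capitals. A match is a description of these letters and not a shown binding site.
Tnfrsf9: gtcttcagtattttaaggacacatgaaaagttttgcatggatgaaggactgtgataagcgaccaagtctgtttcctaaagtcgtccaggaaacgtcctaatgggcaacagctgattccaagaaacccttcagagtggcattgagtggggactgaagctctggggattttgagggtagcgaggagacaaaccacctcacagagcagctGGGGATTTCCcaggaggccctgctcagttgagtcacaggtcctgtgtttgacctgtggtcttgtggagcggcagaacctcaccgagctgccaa
Traf3: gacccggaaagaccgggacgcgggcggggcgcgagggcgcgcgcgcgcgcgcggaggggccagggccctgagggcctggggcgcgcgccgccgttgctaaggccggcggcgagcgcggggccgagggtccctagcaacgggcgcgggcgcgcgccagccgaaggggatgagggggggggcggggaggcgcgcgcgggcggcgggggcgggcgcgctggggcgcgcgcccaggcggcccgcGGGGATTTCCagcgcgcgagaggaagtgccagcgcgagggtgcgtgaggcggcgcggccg
Traf2: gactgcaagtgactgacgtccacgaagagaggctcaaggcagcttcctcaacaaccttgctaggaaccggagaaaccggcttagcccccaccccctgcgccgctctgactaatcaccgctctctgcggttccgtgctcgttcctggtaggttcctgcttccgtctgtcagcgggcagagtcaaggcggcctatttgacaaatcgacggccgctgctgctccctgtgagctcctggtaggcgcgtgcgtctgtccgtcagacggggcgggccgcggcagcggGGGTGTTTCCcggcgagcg

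Transcription factors were mostly within 2-fold, with 6 higher and 5 lower of 46 measured. Irf8, a factor that type 1 cells need, had 0 to 18 UMIs per Fscn1-high cell, with a UMI in 35 of the 74 cells, and was at 186 CPM in Fscn1-high and 40.4 CPM in Fscn1-negative cells (4.60-fold, 3.91 to 5.38). Batf3, its partner in type 1 cells, was at 131 and 50.3 CPM. Irf4, the corresponding factor of type 2 cells, was within 2-fold, at 97.0 CPM in Fscn1-high and 156 CPM in Fscn1-negative cells. Irf1 was at 101 and 19.0 CPM, Stat4 at 255 and 101 CPM, and Ikzf4 at 39.2 CPM in Fscn1-high and 2.03 CPM in Fscn1-negative cells. Ahr, Runx1, Batf and Creb5 were among the lower genes.

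Interferon-linked genes gave 5 higher and 3 lower of 17 measured. Mx1, a GTPase gene, was at 55.7 CPM in Fscn1-high and 4.73 CPM in Fscn1-negative cells, and Gbp2, a guanylate-binding protein, at 78.4 and 6.20 CPM. Ifitm3, a membrane protein that blocks virus entry, was lower, at 333 CPM in Fscn1-high and 822 CPM in Fscn1-negative cells, as were Ifitm1 and Ifitm6. Isg15 was just past 2-fold, at 56.7 and 28.2 CPM.

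MHC class II transcripts made up less of the UMIs in Fscn1-high cells. H2-Ab1, a class II beta chain, had 1 to 442 UMIs per Fscn1-high cell with a median of 32.5, against a median of 173 in Fscn1-negative cells, and its summed levels were 7303 and 13701 CPM. The invariant chain Cd74 had a median of 163 UMIs per Fscn1-high cell, against 413 in Fscn1-negative cells. Of 15 class II presentation genes, 1 was higher and 3 lower, with a list median of -0.78. The 3 lower were the peptide editors H2-DMa and H2-DMb1 and their inhibitor H2-Ob, and H2-DMa was at 388 CPM in Fscn1-high and 996 CPM in Fscn1-negative cells. The count of lower class II genes depended on the setting: it was 5 with TMM, 10 when each cell weighed the same, 7 without the cells above 2 times the median UMIs of their group and 1 with Fscn1-high cells taken at 2 UMIs. H2-Eb2, a class II beta chain gene, was the higher one, at 95.9 and 5.05 CPM.

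Of 27 class I and peptide loading genes, 8 were higher and 1 lower, with a median of 0.77. B2m, the light chain of class I, was at 2498 CPM in Fscn1-high and 1343 CPM in Fscn1-negative cells, and H2-K1 at 2258 and 1208 CPM, both within 2-fold. Psme2, a proteasome activator subunit, was at 534 and 141 CPM, and Nlrc5, the transactivator of class I genes, at 64.0 CPM in Fscn1-high and 8.41 CPM in Fscn1-negative cells. Cd1d1, which presents lipids to NKT cells, was at 27.9 and 5.29 CPM. H2-Q6 and H2-Q7 are near-identical genes, and reads can be split between them, so their values of 273 and 415 CPM in Fscn1-high cells are uncertain. Wdfy4, which cross-presentation requires, was the lower one, at 83.6 CPM in Fscn1-high and 213 CPM in Fscn1-negative cells.

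Lectins and scavenger receptors were the list with the largest number of lower genes, though not the largest share, since 10 of 12 Fc and complement genes were lower. Of 32 lectins and scavenger receptors measured, 21 were lower and 3 higher, with a median of -1.30, against 8.07% lower over all genes. Mgl2, a galactose-type lectin of type 2 cells, was at 434 CPM in Fscn1-high and 1595 CPM in Fscn1-negative cells. Cd209a, a DC-SIGN relative, was at 310 and 829 CPM, Clec10a at 32.0 and 144 CPM, and Mrc1, the mannose receptor, at 38.2 and 155 CPM. Cd209b, Cd207 and Clec4d had no UMI in the 74 cells, which allows up to 3 counts each. Without cells with markers of other cell types, the log2 ratio of Clec4e was 0.52 in place of -3.06. Of the 3 higher genes, Ly75 (DEC-205) had a UMI in 46 of the 74 cells and was at 159 CPM in Fscn1-high and 3.40 CPM in Fscn1-negative cells. Havcr1 had 16 UMIs. Marco had 16 as well, of which 1 cell held 93.8%, and its log2 ratio was 0.57 without that cell.

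Receptors for antibody and complement genes were lower in 10 of 12 and higher in 0. Fcgr2b, the inhibitory Fc receptor, was at 84.6 CPM in Fscn1-high and 279 CPM in Fscn1-negative cells, and Fcgr3 at 22.7 and 106 CPM. Without the 217 cells named above, 5 genes were lower and 1 higher, and the log2 ratio of C1qb was 1.56 in place of -1.18. C1qa, C1qb and C1qc are among the genes that chose the cells left out. The Fscn1-high cells were not filtered in this way, though 4 of them passed the same limit. The change of C1qb therefore follows in part from the filter. That of Fcgr2b was -1.67 in place of -1.72. Toll-like receptors and their adaptors gave 4 lower and 1 higher of 13, with Tlr2 at 40.2 and 86.5 CPM and Cd14 at 345 CPM in Fscn1-high and 720 CPM in Fscn1-negative cells. The higher one was Ly96, the MD-2 partner of Tlr4, at 21.7 and 4.59 CPM on 21 UMIs.

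Among the 12 smallest ratios at 50 CPM or more were those of S100a9, S100a8, Retnla, Lyz1, Fn1, Tbxas1, Lpl, Qpct, Timp2, Emilin2 and Plaur. Between 91.4 and 98.4% of the Fscn1-negative UMIs of S100a8, S100a9, Retnla, Lyz1, Fn1 and Lpl came from the 217 cells with defining genes of other cell types, which those genes in part define. Without these cells their log2 ratios lay between 0.033 and 1.59. Tbxas1, Qpct, Timp2, Emilin2 and Plaur kept log2 ratios of -2.11 or below. Qpct was at 18.6 CPM in Fscn1-high and 99.6 CPM in the remaining Fscn1-negative cells, and Plaur, the urokinase receptor, at 24.8 and 107 CPM.

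Cytoskeleton genes were higher in 13 and lower in 4 of 46, Fscn1 among the 13. Actb was at 17288 CPM in Fscn1-high and 11040 CPM in Fscn1-negative cells, within 2-fold. Actn1, an actin crosslinker, was at 217 and 54.0 CPM, Marcks at 1766 and 790 CPM and Swap70, a Rac regulator of dendritic cell movement, at 313 CPM in Fscn1-high and 138 CPM in Fscn1-negative cells. Stap2 was at 19.6 and 0.280 CPM on 19 UMIs. Among adhesion genes, 8 were higher and 6 lower of 31: the tetraspanins Tspan3 and Cd63 were at 798 against 44.2 CPM and at 530 against 23.9 CPM, and Itga4, an integrin alpha chain, at 603 and 188 CPM. Itgam and Itgal, integrin chains of myeloid cells and leukocytes, were lower.

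Genes tied to tolerance were 6 higher and 6 lower of 17. Aldh1a2, the enzyme that makes retinoic acid, was at 275 CPM in Fscn1-high and 16.7 CPM in Fscn1-negative cells (16.5-fold, 14.2 to 19.3). Il4i1, an amino acid oxidase that limits T cells, was at 635 and 63.2 CPM, and Itgb8, which helps activate TGF-beta, at 25.8 and 0.841 CPM on 25 UMIs. Hmox1, Cd200r1, Pros1, Entpd1, Lrrc32 and Tgfb1 were lower. Against Fscn1-negative cells with Ccr7 at 0, the log2 ratio of Lrrc32 was 0.0058.

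Of 22 measured genes of lipid handling, 2 were higher and 6 lower (Lpl, Dgat2, Apoe, Pltp, Plbd1 and Lrp1), with a median log2 ratio of -0.36. The higher ones were Fabp5 and Fabp4, both of them genes given with the label. Fabp5 was at 0 to 204 UMIs per Fscn1-high cell and a median of 11, against a median of 0. Its level was 1382 CPM in Fscn1-high and 31.6 CPM in Fscn1-negative cells (43.7-fold, 40.1 to 47.6). Fabp4 was at 78.4 and 5.22 CPM, in 9 and 33 cells. Cholesterol synthesis genes were higher in 6 and lower in 0 of 17, with a median of 0.75. Idi1, an isomerase of the isoprenoid path, was at 270 CPM in Fscn1-high and 22.9 CPM in Fscn1-negative cells, Hmgcs1 at 94.9 and 26.1 CPM and Cyp51 at 102 and 36.3 CPM. Fdft1 and Mvk rested on 14 UMIs each.

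Shares of cells with a UMI were read against free RNA. Of Fscn1-negative cells, 58 held 10 or more UMIs of B cell or neutrophil markers, with a median of 3303.5 UMIs. Ccl5 was found in 81.1% of Fscn1-high cells, in 273 of the 2271 Fscn1-negative cells and in 3.45% of these 58. With every cell thinned to 2000 UMIs, a depth that 74 Fscn1-high and 2260 Fscn1-negative cells reached, the shares with Ccl5 were 70.3% and 4.34%, those with Cacnb3 52.7% and 0.177%, and those with Ccr7 95.9% and 40.2%. Mgl2 was found in 20.3% of thinned Fscn1-high and 77.2% of thinned Fscn1-negative cells. Before thinning, Mgl2 was found in 41.9% of Fscn1-high cells and in 32.8% of the 58, at unequal depth, so free RNA and expression cannot be told apart from these shares.

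The 74 cells were not alike. Of them, 8 held over 21607 UMIs (above 2 times the median) and 23.8% of all UMIs, and these carried much of the type 2 signal. They held 263 of the 421 Mgl2 UMIs, 206 of the 301 Cd209a UMIs, 21 of the 31 Clec10a UMIs and 40 of the 62 Itgam UMIs. Mgl2 was at 1140 CPM in these 8 cells and 214 CPM in the other 66, and Cd209a at 893 and 129 CPM. The maturation genes ran the other way: Ccr7 was at 1998 CPM in the 8 deep cells and 3850 CPM in the other 66, Ccl22 at 2250 and 6190 CPM and Ly75 at 30.3 and 199 CPM. Without the 8 cells, the log2 ratio to Fscn1-negative cells was -2.90 for Mgl2 in place of -1.88, and -2.43 for Itgam in place of -1.32. No doublet caller was run, and the part of doublets in these values was not tested.

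**Figure D2:**
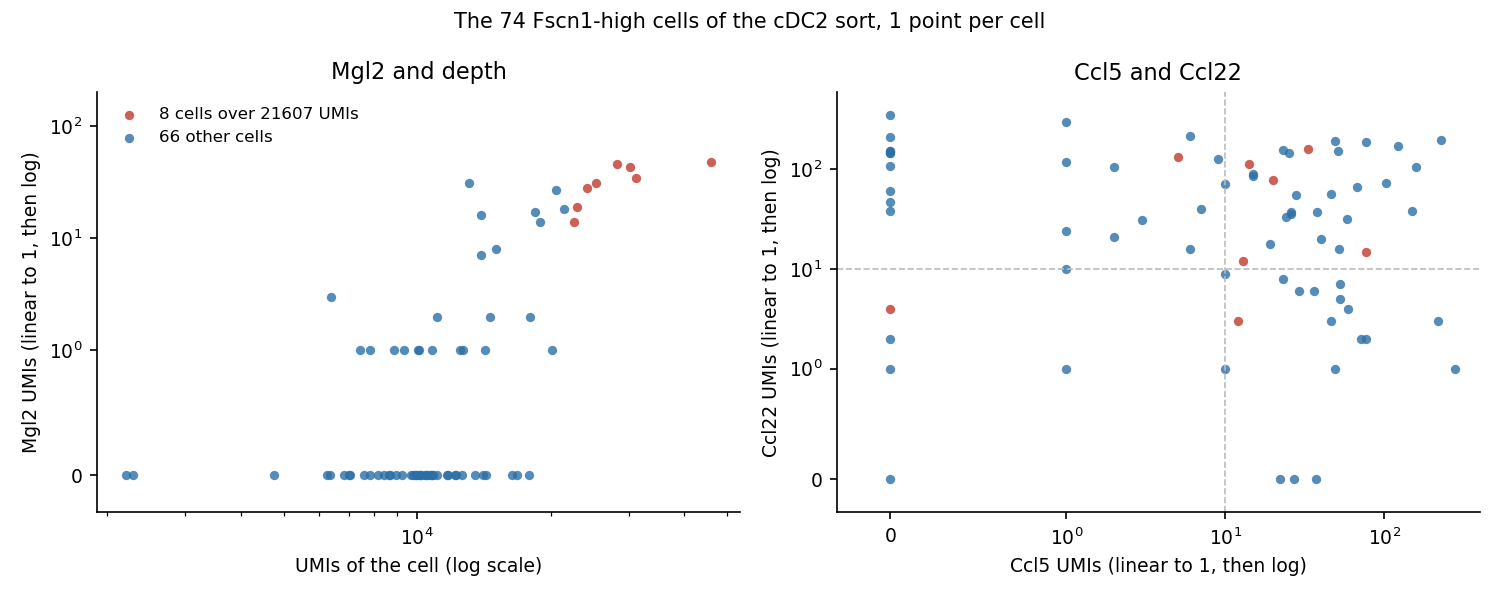
UMIs per cell in the 74 Fscn1-high cells of the cDC2 sort, 1 point per cell, with the 8 cells over 21607 UMIs in red and the other 66 in blue. Left: Mgl2 against the cell's total UMIs, with 43 cells at 0 and all 8 deep cells at 14 or more. Right: Ccl22 against Ccl5, with dashed lines at 10 UMIs; 29 cells pass both lines, 18 only that of Ccl5, 22 only that of Ccl22 and 5 neither.

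Ccl5 and Ccl22 overlapped in part over the cells. At 10 UMIs or more, 29 of the 74 cells held both, 18 only Ccl5 and 22 only Ccl22, and 5 neither. At 1 UMI or more, 57 held both, 3 only Ccl5, 13 only Ccl22 and 1 neither. The overlap that unrelated genes of these levels would give was not worked out. Across the 74 cells, which share a library and differ in depth, Spearman's rho of the UMI fractions was -0.22 for this pair and 0.85 for Ccl17 with Ccl22, as a description with no test. Irf8 and Irf4 overlapped in part at 1 UMI or more: 16 cells held both, 19 only Irf8, 22 only Irf4 and 17 neither.

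Over classes of Fscn1 UMIs within the group, several genes rose or fell in order. Fscn1 UMIs also chose the cells, so the classes and the rho values below are descriptions with no test. Median UMIs per cell were 13211, 10161, 10405 and 11418 from the lowest class to the top class, and the part of depth was not tested. Cells with 3 to 5 Fscn1 UMIs (18 cells) had Ccl22 at 2829 CPM, Irf8 at 26.6 CPM and H2-Ab1 at 11494 CPM. Cells with 30 to 91 Fscn1 UMIs (18 cells) had Ccl22 at 8021 CPM, Irf8 at 348 CPM and H2-Ab1 at 4975 CPM. Ccl5 showed no such order, at 2736, 2577, 2485 and 3640 CPM over the 4 classes of rising Fscn1. Ccl17 was lowest in the 3 to 5 class, at 1144 CPM, and highest in the top class, at 3871 CPM. Over the 74 cells, rho with Fscn1 was -0.61 for H2-Ab1, 0.56 for Cacnb3, 0.56 for Ly75, 0.50 for Irf8 and 0.19 for Ccl5.

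**Figure D3:**
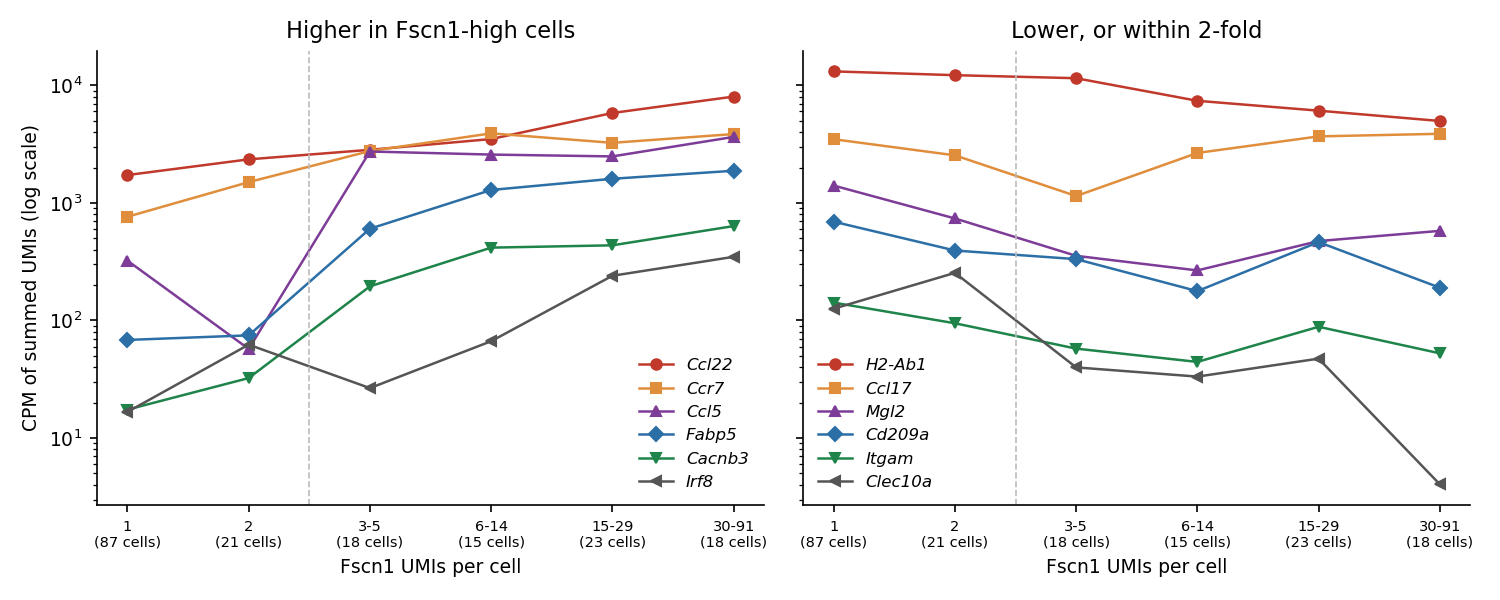
Level (CPM of summed UMIs, log axis) of 12 genes in cells of the cDC2 sort classed by their Fscn1 UMIs; the dashed line marks the threshold of 3 UMIs and the number of cells stands under each class. Ccl22, Fabp5 and Cacnb3 climb with Fscn1 from the 3 to 5 class on and H2-Ab1 declines, at 11494 CPM in the 3 to 5 class and 4975 CPM in the top class.

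The 108 cells with 1 or 2 Fscn1 UMIs lay between the Fscn1-high and the Fscn1-negative cells for some genes. Their Cacnb3 was at 20.9 CPM, that of Fscn1-high cells at 427 CPM and that of Fscn1-negative cells at 1.40 CPM. Mgl2 was at 1249 CPM in the 108 cells, against 434 CPM in Fscn1-high cells. The 21 cells with exactly 2 UMIs had Ccr7 at 1502 CPM, Apol7c at 84.7 CPM, against 75.4 CPM in the 3 to 5 class, and Ccl5 at 57.3 CPM. The 87 cells with 1 UMI had Ccl5 at 323 CPM and Apol7c at 0.759 CPM.

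Ccr7 alone did not pick out these cells, since 993 Fscn1-negative cells of the sort held 3 or more Ccr7 UMIs. Against those Ccr7-positive cells, 971 of 6617 measured genes (14.7%) were higher and 356 (5.38%) lower in the same 74 Fscn1-high cells. Ccl5 was at 2855 CPM in Fscn1-high and 67.3 CPM in Ccr7-positive cells, Cacnb3 at 427 and 2.26 CPM, Fabp5 at 1382 and 27.3 CPM, Relb at 422 and 76.2 CPM and Tmem123 at 1437 and 173 CPM. H2-DMa was at 388 CPM in Fscn1-high and 912 CPM in Ccr7-positive cells, and Mgl2 at 434 and 1620 CPM. Ccl17 was highest in the Ccr7-positive cells, at 2949 CPM in Fscn1-high, 5189 CPM in Ccr7-positive and 1758 CPM in Fscn1-negative cells with Ccr7 at 0 (901 cells).

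Other genes were graded over the 3 groups. Il4i1 was at 635 CPM in Fscn1-high, 104 CPM in Ccr7-positive and 26.5 CPM in Ccr7-zero cells, and Cd274 at 149, 56.2 and 18.0 CPM in the same order. Irf8 was not: it was at 186 CPM in Fscn1-high, 15.1 CPM in Ccr7-positive and 67.3 CPM in Ccr7-zero cells. Between the Ccr7-positive and the Ccr7-zero cells, 68 of 6425 genes (1.06%) were higher and 346 (5.39%) lower.

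**Figure D4:**
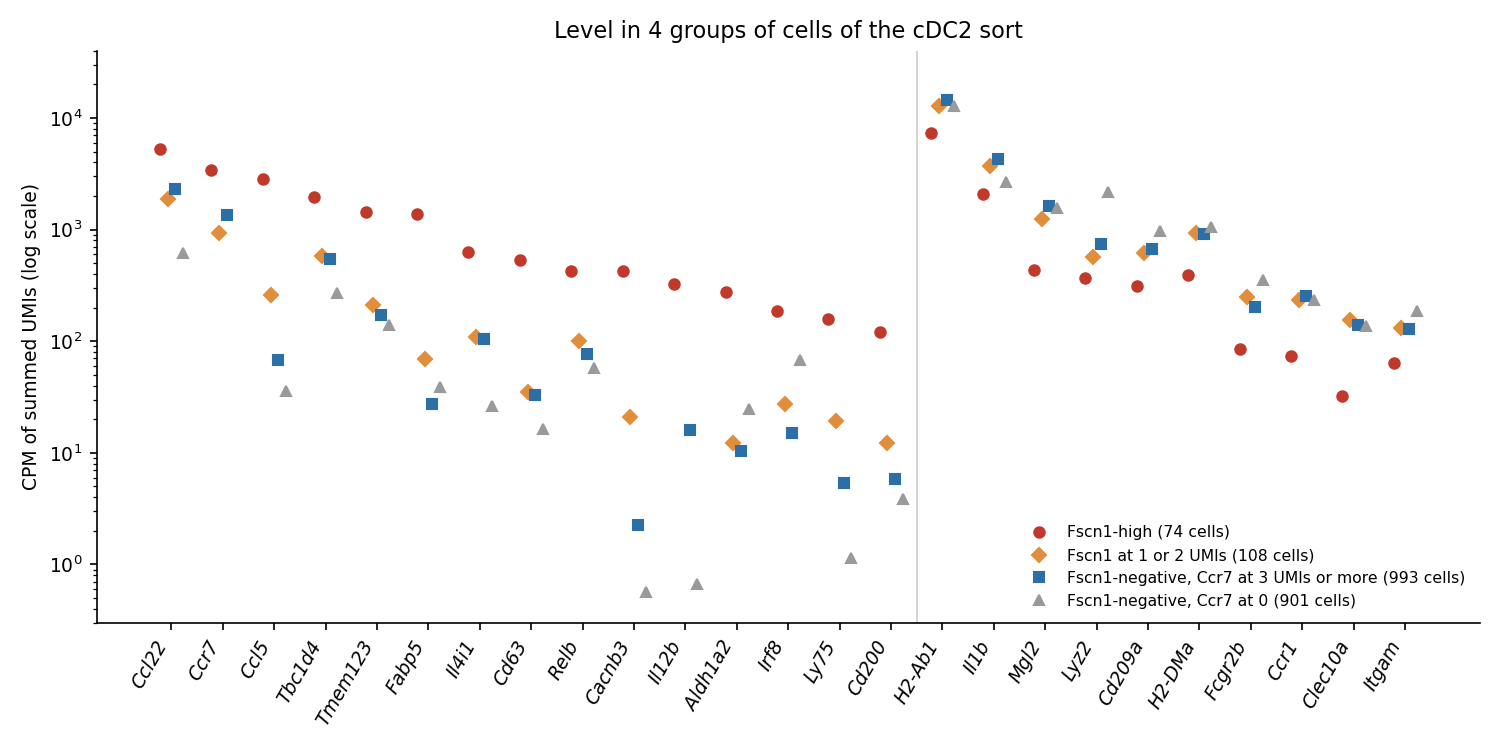
Level (CPM of summed UMIs, log axis) of 25 genes in 4 groups of cells of the cDC2 sort, with a gap where a group had no UMI. For the 15 genes left of the line the Fscn1-high cells lie above the other groups, as for Ccl5 at 2855 CPM against 67.3 CPM in Ccr7-positive cells, and for the 10 genes right of it they lie below, as for Mgl2 at 434 CPM against 1620 CPM.

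The cDC1 sort held 84 Fscn1-high cells by the same rule, 3.26% of its 2574 kept cells. Sort and library cannot be told apart in what follows. Within the cDC1 sort, 950 of 6599 genes (14.4%) were higher and 850 (12.9%) lower in its Fscn1-high cells than in its 2061 Fscn1-negative cells. Measured in both sorts were 6127 genes, of which 621 were higher in the cDC2 sort and 830 in the cDC1 sort. Of these, 469 were higher in both, 75.5% of the 621 and 56.5% of the 830. Lower in both were 276, or 69.0% of the 400 lower in the cDC2 sort and 38.3% of the 721 lower in the cDC1 sort.

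**Figure D5:**
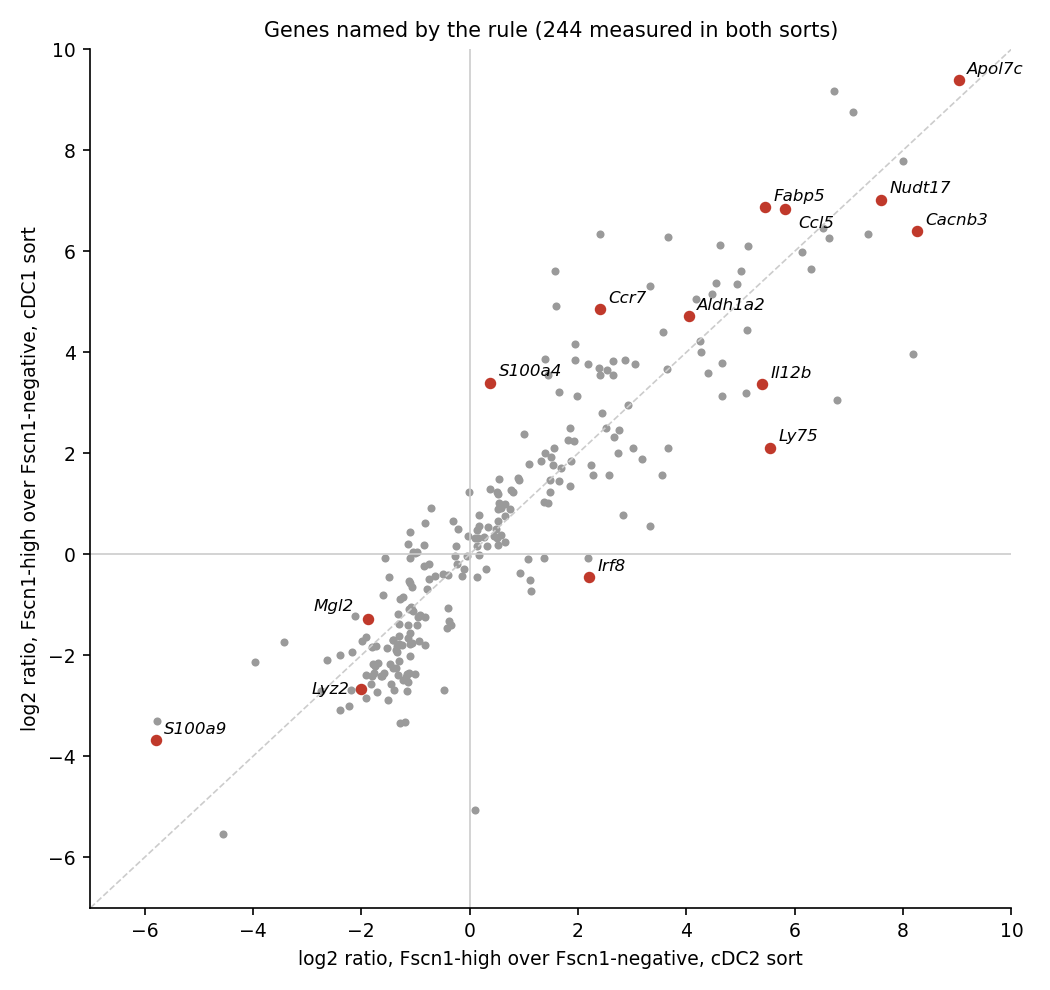
Log2 ratio of CPM, Fscn1-high over Fscn1-negative cells, in the cDC2 sort (horizontal) and in the cDC1 sort (vertical) for 244 named genes measured in both sorts; each point is 1 gene, labelled genes are red and the dashed line marks equal ratios. Apol7c, Nudt17, Cacnb3 and Ccl5 lie at the upper right and S100a9 and Lyz2 at the lower left, while Irf8 has a log2 ratio of 2.20 in the cDC2 sort and -0.45 in the cDC1 sort.

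Set directly against the Fscn1-high cells of the cDC1 sort, those of the cDC2 sort had 785 of 6771 genes higher (11.6%) and 403 lower (5.95%), or 589 and 543 with TMM. Some genes named above were within 2-fold: Ccr7 was at 3409 CPM in the cDC2 sort and 3473 CPM in the cDC1 sort, Ccl22 at 5252 and 6313 CPM, Ccl17 at 2949 and 2871 CPM and Apol7c at 530 and 360 CPM. Against the Fscn1-negative cells of each sort, 19 of 26 measured maturation genes were higher in the cDC2 sort. In the cDC1 sort 24 of 26 were, with Fscn1 counted in both. Itgam, Cd209a, Ms4a6c, Ccr1, Ms4a4c, Cfp, Cebpb, Cxcl2 and Mgl2 were among the 12 largest ratios, with Cd209a at 310 CPM in the cDC2 sort and 6.97 CPM in the cDC1 sort. Ccr1 and Ms4a4c had no UMI in the 84 cells, which makes Ccr1 at least 28.0-fold higher and Ms4a4c at least 25.3-fold higher, taking 3 counts over the group as the floor. Ccl4 and Mmp12, also among the 12, rested on single cells that held 83.1 and 65.5% of their UMIs. The last of the 12 was Fabp4, at 78.4 CPM in the cDC2 sort, from 9 cells, and 1.74 CPM in the cDC1 sort.

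Among the 12 smallest ratios were Xcr1, Cd207, Ifi205, Ifi211, Mndal, Txndc16, Cldn1 and Rab7b. Xcr1, the receptor the cDC1 sort used, was at 1.03 CPM in Fscn1-high cells of the cDC2 sort and 94.1 CPM in those of the cDC1 sort. Sirpa, the gene of the cDC2 sort's own marker, was at 149 and 19.2 CPM. Ifi205, an interferon-inducible PYHIN gene, was at 2.06 CPM in the cDC2 sort and 158 CPM in the cDC1 sort.

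Other genes named above differed between the sorts. Ccl5 was 2.20-fold lower in the cDC2 sort, at 2855 CPM against 6285 CPM in the cDC1 sort, and Il12b 4.81-fold lower, at 326 and 1568 CPM. Irf8 was at 186 CPM in Fscn1-high cells of the cDC2 sort and 801 CPM in those of the cDC1 sort, and Irf4 was 4.84-fold higher in the cDC2 sort, on 94 against 23 UMIs. Within the cDC1 sort, Irf8 was at 801 CPM in Fscn1-high and 1097 CPM in Fscn1-negative cells, and Il12b at 1568 and 152 CPM. Tnfrsf4 was at 54.7 CPM in the cDC2 sort and 118 CPM in the cDC1 sort, and Fabp5 at 1382 and 817 CPM, within 2-fold.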

How the data were processed

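Lung cDC1 (XCR1+) and cDC2 (CD172a+) cells were sorted and made into 1 library each with the 10x Chromium v3.1 kit, per the labels' protocols. The deposited matrices hold UMI counts per gene and cell; Cell Ranger 3.2, Seurat and the build mm10 are named in the submitters' processing notes, while the file headers give software version 3.0.2. Totals were 39188956 UMIs in the cDC2 sort and 36021556 in the cDC1 sort.

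The members, lists and markers were chosen with earlier results of these data known. Counts were summed over the cells of a group and scaled to CPM, genes were measured at 10 CPM in either group, and exact conditional binomial 95% intervals cover counting error only. With 1 library per sort no test was made and cells were not treated as replicates. Named genes were the label's markers, the 12 largest and 12 smallest ratios at 50 CPM, and from each list up to 5 genes per direction and 3 by level; other genes named for a count of 5 or fewer, or with 0 UMIs, were picked with their values already known. Some genes that this rule names are not reported here. A count of 0 was set to 3 counts over the group, and no fold was given where that floor passed the other group. Of 31053 feature IDs, 31011 had coordinates in GENCODE vM21, and 71 shared a symbol. Promoters came from RefSeq, GRCm38.p6. Python 3.11.15, numpy 2.4.6, scipy 1.17.1, pandas 2.3.3, matplotlib 3.10.9 and, for TMM, edgeR 4.0.16 in R 4.3.3 were used. The ratio calculation was tested on simulated data.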

Additional observations from a re-analysis of the deposited data

Results flagged for a closer look

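Gla, the lysosomal enzyme alpha-galactosidase A, differed in opposite directions in the 2 sorts. In the cDC2 sort it was at 14.4 CPM in Fscn1-high cells and 29.8 CPM in Fscn1-negative cells, a log2 ratio of -1.05 on 14 UMIs in the Fscn1-high cells. In the cDC1 sort it was at 29.6 CPM in Fscn1-high and 11.9 CPM in Fscn1-negative cells, a log2 ratio of 1.32 on 34 UMIs.

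Gna11, a G protein alpha subunit, showed the reverse order. Its log2 ratio was 1.08 in the cDC2 sort, at 11.3 CPM in Fscn1-high and 5.36 CPM in Fscn1-negative cells. In the cDC1 sort it was -1.56, at 3.49 and 10.3 CPM. The Fscn1-high cells held 11 UMIs of it in the cDC2 sort and 4 in the cDC1 sort. For neither gene was the difference between the sorts tested.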

How the results depend on the processing

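No paired analysis was possible because each sort is 1 library. The 759 higher and 546 lower genes of Fscn1-high against Fscn1-negative cells became 1147 and 862 when all cells with markers of other types were left out (50 against 931 cells), 1442 and 903 at 2000 UMIs per cell, 293 and 177 with a floor of 50 CPM, and 2210 and 1044 with no floor, where few UMIs decide a ratio. With Fscn1-high cells taken at 2 UMIs, 283 genes were lower, and those cells made up 3.35% of the sort; taken at 6 UMIs they made up 1.98%. Between the sorts, the 785 higher and 403 lower genes became 1236 and 741 at 2000 UMIs per cell and 161 and 102 at 50 CPM. The other alternatives kept these counts within 1.5 times, but a similar count can hold other genes. Between the sorts, the difference of the 2 ratios to each sort's own Fscn1-negative cells gave 755 higher and 555 lower genes. Of these, 336 and 143 were among the 785 and 403. For the 285 named genes, a change of sign was counted only where the gene was called at 2-fold or more. Of those called genes, 16 changed sign under at least 1 of 14 alternatives, 22 values in all. Changes of sign of named genes within 2-fold were not counted. Over all 285 named genes, 2969 values stayed inside the counting interval of the reported ratio. Another 985 lay outside it with no change of sign of a called gene. The log2 ratios of these 16 called genes that changed sign follow. Without cells with markers of other types, they were 2.05 for Apoe, 0.52 for Clec4e, 1.01 for Il6, 0.0053 for Lyz1, 0.93 for S100a8, 0.66 for Slc11a1 and -0.35 for Tyms. Without Fscn1-negative cells with defining markers of other types, they were 0.83 for C1qa, 1.59 for Fn1, 1.004 for Lpl, 0.14 for Lyz1, 0.26 for Retnla, 0.089 for S100a8, 0.033 for S100a9 and 0.41 for Slc11a1. Of these, C1qa, Fn1, Lpl, Retnla, S100a8 and S100a9 are among the genes that chose the cells left out. At 2000 UMIs per cell, Osm was at 0.34, and no ratio is given for genes with a group at 0 whose floor passed the other group. Against cells with Ccr7 at 0, Lrrc32 was at 0.0058. With cycling cells kept among the Fscn1-negative cells, Stmn1 was at -1.18 and Top2a at -1.38, and without the 9 Fscn1-high cells with 4 or more cycling UMIs, Stmn1 was at -0.033, Top2a at -0.019 and Tyms at -0.55. The alternatives that leave out cycling Fscn1-high cells, the shared barcode, cells with defining markers or the top cell of a gene were chosen after seeing the data. The cause of these changes was not tested beyond what each alternative leaves out. The 969460 UMIs of 74 cells limit the precision of genes near 10 CPM.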

Other observations

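Genes of lipid mediators were 1 higher and 5 lower of 12 measured. Alox5ap, which presents arachidonic acid to 5-lipoxygenase, was at 203 CPM in Fscn1-high and 533 CPM in Fscn1-negative cells, and Ltb4r1, a leukotriene B4 receptor, at 56.7 and 161 CPM. Ltc4s, the leukotriene C4 synthase, was the higher one, at 23.7 and 3.75 CPM on 23 UMIs. Hpgd, which degrades prostaglandins, had 4 UMIs in Fscn1-high cells and was at 27.8 CPM in Fscn1-negative cells.

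Of 16 genes of the S100, serpin and annexin list, 6 were higher and 3 lower. Serpinb6b was 25.3-fold higher, at 355 CPM in Fscn1-high cells, and Serpinb9, an inhibitor of granzyme B, was at 312 CPM in Fscn1-high and 24.8 CPM in Fscn1-negative cells. Anxa1 was lower, at 50.5 and 191 CPM. S100a4 was within 2-fold in the cDC2 sort, with a log2 ratio of 0.38, and had a log2 ratio of 3.40 in the cDC1 sort.

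Solute carriers were higher in 5 and lower in 2 of 16. Slco5a1 was at 36.1 CPM in Fscn1-high and 0.140 CPM in Fscn1-negative cells, the Fscn1-negative value resting on 4 UMIs. Among genes of sugar use, Pfkfb3, a regulator of glycolysis, was at 186 and 22.4 CPM, while Slc2a1, a glucose transporter, was lower, at 28.9 and 86.4 CPM. Survival genes gave 4 higher and 0 lower of 22. The list of 32 genes of stress and early response gave 0 higher and 6 lower, with Hspa5, a chaperone of the endoplasmic reticulum, at 642 and 1416 CPM.

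Cell cycle genes were 4 higher and 0 lower of 19, in a comparison whose Fscn1-negative cells had been chosen to hold few cycling UMIs. Of the 74 Fscn1-high cells, 9 held 4 or more cycling UMIs. With the cell that held most UMIs of each gene left out, 0 of the 19 were higher.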
